A study of Sus scrofa with 12 samples.

Results

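The calpain system comprises calcium-activated cysteine proteases and their inhibitor. CAPN1 and CAPN2 encode the large catalytic subunits of the ubiquitous calpains, μ-calpain and m-calpain, and CAPNS1 encodes the small regulatory subunit that both of them bind. CAPN3 encodes a calpain found mainly in skeletal muscle, where it is held at titin in the sarcomere, and its loss causes a limb-girdle muscular dystrophy. CAST encodes calpastatin, which specifically inhibits μ-calpain and m-calpain. In skeletal muscle these enzymes cut cytoskeletal and myofibrillar proteins, and after slaughter their balance with calpastatin is known to bear on the tenderness of meat.

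Chromatin accessibility at these 5 genes was examined in the longissimus dorsi muscle of male Duroc and Luchuan pigs aged 180 days, kept under the same feeding conditions and fasted overnight before death. ATAC-seq, in which a transposase cuts open DNA so that reads accumulate there, was performed on 3 Duroc and 3 Luchuan boars, a lean and a fat breed. The deposited table gives 1 read count per breed for each peak interval and none per boar. The values below therefore carry counting error only, and whether boars of a breed differed among themselves could not be seen. The muscle was sampled as bulk tissue, so fewer nuclei of a cell type and fewer reads per nucleus cannot be told apart.

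Members were the peak intervals whose midpoint lay in 1 of the 5 genes or within 10 kb of it, on Sscrofa11.1 coordinates. Of the 217213 intervals, 117 met this rule. A peak called in both breeds is listed once for each breed, so common intervals that overlapped or touched were joined into 1 region, represented by the longest of them. This left 71 regions of 140081. They held 14801 Duroc and 9049 Luchuan reads out of 20759894 and 13746020. Luchuan counts were multiplied by 1.48, the factor that brings the median ratio over the 68776 common regions to 1. In all that follows, a log2 ratio is that of scaled Luchuan to Duroc reads with 1 added to each count, negative where Duroc was higher, and the range in parentheses is its 95% Clopper-Pearson counting interval. Whether PCR copies of a fragment were marked by molecular identifiers or removed is not given in the sources used here. The intervals cover counting error only, and the true error is wider.

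Genes of muscle fibers were the most open of the cell type markers examined. The strongest region within 2 kb of an end of ACTA1, CKM, DES, MYLPF, TNNT3 and TTN held 1040.8 to 1328 Duroc and 700 to 884 Luchuan reads per kb. Of 3 adipocyte genes, ADIPOQ and LEP had no such region and PLIN1 held 228 and 191 reads per kb. Markers of satellite cells, endothelium, fibroblasts and immune cells reached at most 405 Duroc and 374 Luchuan reads per kb, except CD68 with 633 and 453. Among genes of other tissues, ALB had no region, INS had 147 and 80.0 reads per kb, and GFAP had 241 and 151.

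The 5 genes did not lean the same way. The summed reads of CAPN1, CAPN2, CAPN3 and CAPNS1 were higher in Duroc, and those of the inhibitor gene CAST were higher in Luchuan. The differences lay between 1.08-fold and 1.32-fold. For CAPN1 the sums were 1203 reads in Duroc and 617 in Luchuan, a log2 ratio of -0.40 (-0.54 to -0.26). For CAPN2 they were 1913 and 1011 reads, a log2 ratio of -0.36 (-0.47 to -0.25). The ubiquitous large subunits thus stood lowest of the 5. For CAPN3 the sums were 6727 and 3986 reads and the log2 ratio was -0.19 (-0.25 to -0.14). CAPNS1 had 1848 and 1153 reads and a log2 ratio of -0.12 (-0.23 to -0.01), close to no difference. CAST had 3110 and 2282 reads and a log2 ratio of 0.11 (0.04 to 0.19). Without scaling, CAST too had fewer Luchuan than Duroc reads, with a log2 ratio of -0.45, and its sign rests on the scaling.

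These sums were read against 16986 protein-coding genes that had at least 1 region by the same rule. Over them the median log2 ratio was -0.01, and the middle 50% lay between -0.15 and 0.15. The median of the 5 members was -0.19. CAPN1 and CAPN2 lay at percentiles 6.57 and 8.07, CAPN3 and CAPNS1 at 19.2 and 29.2, and CAST at 70.7. The counting interval lay wholly on the Duroc side for 4 of the 5 members, against 25.5% of all genes, and on the Luchuan side for 1, against 22.5% of all genes. Genes with more reads have narrower intervals. The shares of all genes, here and for the further lists below, were not matched to the reads of the genes compared. With the total reads of all regions as the scale, the CAPNS1 interval reached 0, with a log2 ratio of -0.09 (-0.19 to 0.02). Without regions in another gene it also included 0, with a log2 ratio of -0.04 (-0.20 to 0.12).

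The differences between members do not depend on a single factor between the libraries, since each gene is compared with another within them. CAST minus CAPN1 was 0.52 on the log2 scale (0.36 to 0.68) and CAST minus CAPN2 was 0.47 (0.34 to 0.61). CAST minus CAPN3 was 0.31 (0.21 to 0.40) and CAST minus CAPNS1 was 0.23 (0.10 to 0.37). The inhibitor gene thus exceeded each of the others in its Luchuan to Duroc ratio by more than counting error when all regions were counted. Without regions in another gene, CAST minus CAPNS1 was 0.16 (-0.02 to 0.34), and the interval included 0. With a separate factor for each of 10 classes of reads, CAST minus CAPN3 was 0.27 (0.17 to 0.36) and CAST minus CAPNS1 was 0.21 (0.08 to 0.34). Of the 10 pairs, 8 differed in this sense. The exceptions were CAPN2 minus CAPN1 at 0.04 (-0.14 to 0.22) and CAPNS1 minus CAPN3 at 0.07 (-0.05 to 0.20). Such intervals compare pooled libraries and not breeds.

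**Figure D1:**
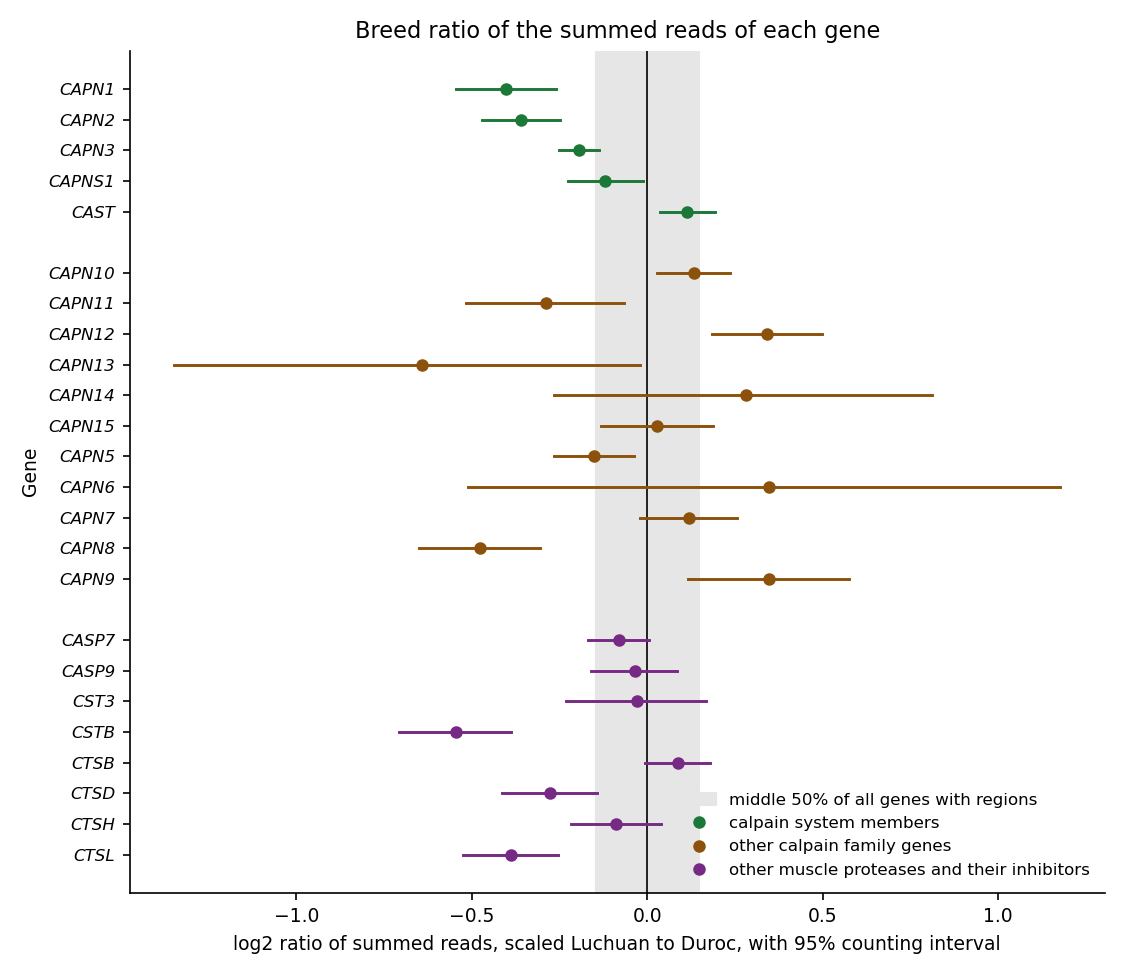
Log2 ratio of the summed reads of each gene, scaled Luchuan to Duroc (x axis), for the calpain system members and for 2 further gene lists (y axis). Points are ratios, lines are 95% counting intervals, and the grey band holds the middle 50% of 16986 genes, from -0.15 to 0.15. CAPN1, CAPN2 and CAPN3 lie below the band and CAST lies inside it above 0.

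Per length of open chromatin, CAPN3 was the most accessible of the 5 genes and CAPN2 the least. Over the summed length of its regions, CAPN3 held 674 Duroc and 400 Luchuan reads per kb without scaling, over 9975 bases. CAPNS1 held 576 and 359 reads per kb, CAPN1 472 and 242, CAST 384 and 282, and CAPN2 364 and 193. In Duroc CAST thus ranked below CAPN1 and in Luchuan above it. The strongest region within 2 kb of a gene end was compared across 14438 genes with such a region. That of CAPN3 had 942 Duroc and 622 Luchuan reads per kb, at percentiles 93.7 and 87.1. That of CAST had 385 and 324 reads per kb, at percentiles 25.2 and 35.1. CAPN1, CAPN2 and CAPNS1 lay between percentiles 41.1 and 64.6 in both breeds.

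The map of the open regions shows how they spread along each gene. CAPN3 had 22 regions, CAST 24, CAPN2 14, CAPN1 7 and CAPNS1 4, and the median over all genes with a region was 5. Within the genes and the 10 kb on both sides, CAPN3 had 3.0 regions per 10 kb and the other 4 genes had between 1.47 and 1.72. The reads were concentrated to different degrees. A single region held 75.8% of the reads of CAPN1, and the strongest regions held 48.2% for CAPNS1, 36.8% for CAPN2, 27.2% for CAST and 15.3% for CAPN3. The annotation used here has no strand, so the start of a gene was not told from its end, and the ends are named by their lower and higher coordinate.

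**Figure D2:**
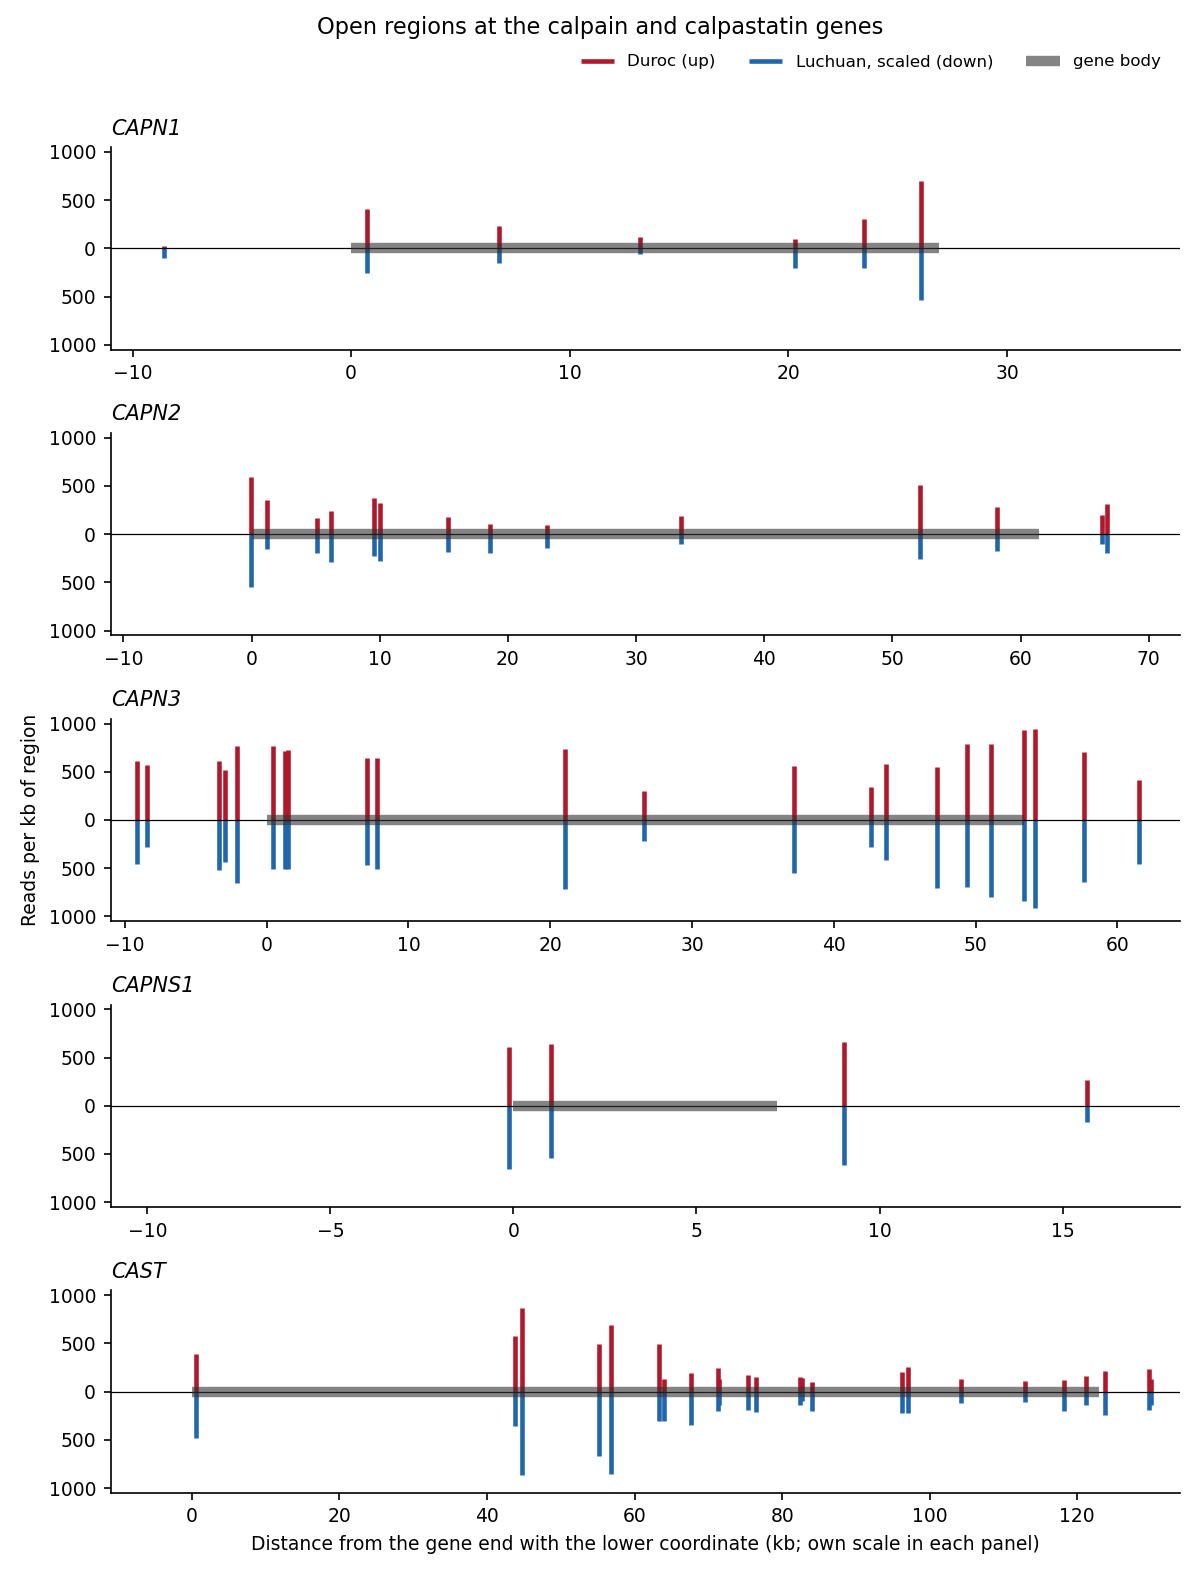
Reads per kb of each open region (y axis), Duroc upwards and scaled Luchuan downwards, by distance in kb from the gene end with the lower coordinate (x axis, own scale in each panel). The thick grey line is the gene body. CAPN3 carries strong regions near both ends and at places between them, with 942 Duroc reads per kb at most. The regions of CAST beyond 71.3 kb hold at most 255 Duroc reads per kb.

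CAPN1, encoding the large subunit of μ-calpain, lies on chromosome 2 from 6997513 to 7024410. Its strongest region, from 7022935 to 7024234, lay inside the gene next to the end with the higher coordinate and was called in both breeds. It had 910 reads in Duroc and 469 in Luchuan, a log2 ratio of -0.39 (-0.56 to -0.23). Among the 14022 regions of the series with the most reads, 688 or more, this ratio stood at percentile 4.31. At the other end of the gene, the common region from 6998053 to 6998421 had 152 reads in Duroc and 63 in Luchuan, a log2 ratio of -0.70 (-1.16 to -0.28). Both regions at the gene ends were thus higher in Duroc by more than counting error. Each of the 3 regions called in Duroc only, between the ends, also had a ratio below 0, from -0.90 to -0.53, but their intervals included 0. The deepest of them, from 7004163 to 7004389, had 53 and 23 reads and a log2 ratio of -0.61 (-1.42 to 0.09). Another, from 7010631 to 7010804 with 21 and 7 reads, lay in the pseudogene LOC102165049 within CAPN1.

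The regions of CAPN1 called in Luchuan only went the other way with few reads. The region from 7017741 to 7017916 had 17 reads in Duroc and 24 in Luchuan, a log2 ratio of 1.04 (0.10 to 2.05). The region from 6988884 to 6989033, with 4 reads in Duroc and 10 in Luchuan, had 1.70 (0.09 to 4.01) and lay in the neighbouring gene SLC22A20. Without its strongest region the log2 ratio of the CAPN1 sum was -0.42. The 178 regions within 500 kb of CAPN1 and outside its 10 kb margin had a median log2 ratio of -0.13, with a middle 50% from -0.40 to 0.04. With a margin of 50 kb the log2 ratio of the sum was -0.26.

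CAPN2, encoding the large subunit of m-calpain, lies on chromosome 10 from 19758824 to 19820241. Its strongest region, from 19758219 to 19759334, spanned the end with the lower coordinate. It had 659 reads in Duroc and 418 in Luchuan and a log2 ratio of -0.09 (-0.28 to 0.08), so no difference was detectable there at this depth. The difference between breeds lay in the weaker regions. The common region from 19810608 to 19811377, inside the gene 9.25 kb from the higher coordinate, had 389 reads in Duroc and 133 in Luchuan. Its log2 ratio of -0.98 (-1.28 to -0.70) stood at percentile 2.82 among regions of like depth, the lowest of all 71 members. The region from 19759948 to 19760162, called in Duroc only and 1.23 kb inside the gene, had 77 reads in Duroc and 23 in Luchuan and a log2 ratio of -1.14 (-1.92 to -0.49). It was the only member more than 2-fold higher in Duroc.

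Along CAPN2 the regions fell into stretches of unlike ratios, divided here after the values had been seen. The first 9 regions, up to 23.1 kb from the lower coordinate, held 1235 reads in Duroc and 763 in Luchuan, a log2 ratio of -0.13, and 5 of them were above 0. Among these 9, the common region from 19768186 to 19768532 had 129 and 54 reads and a log2 ratio of -0.68 (-1.18 to -0.23), as low as the last 5 regions. The adjacent region from 19768584 to 19769142 had 183 and 107 reads and a log2 ratio of -0.21 (-0.57 to 0.14). The last 5 regions held 678 and 248 reads, a log2 ratio of -0.89, and each lay between -0.98 and -0.64. The region from 19792219 to 19792473, called in Duroc only, had 49 and 17 reads and a log2 ratio of -0.91 (-1.86 to -0.14). Of these 5, the regions from 19825059 to 19825312 and from 19825401 to 19825749 lay in the next gene, TP53BP2. The region of CAPN2 with the highest ratio, from 19777352 to 19777555, was called in Luchuan only and had 21 reads in Duroc and 27 in Luchuan, a log2 ratio of 0.91 (0.05 to 1.82). Within the gene body alone, which left out the strongest region, the log2 ratio of the sum was -0.49. The 78 regions within 500 kb had a median log2 ratio of 0.09, on the other side of 0 from the gene. Their lower and upper quartiles were -0.55 and 0.46, and this range held the -0.36 of the CAPN2 sum.

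CAPN3, encoding the calpain of skeletal muscle, lies on chromosome 1 from 128960117 to 129013508. Its regions of highest accessibility lay at the end with the higher coordinate, and there the breeds did not differ detectably. The region from 129013947 to 129014633, 0.78 kb outside the gene, had 647 reads in Duroc and 427 in Luchuan and a log2 ratio of -0.04 (-0.22 to 0.14). Its 942 Duroc reads per kb stood at percentile 99.0 of all regions. The region from 129013347 to 129013696, which spans this end, had 326 and 199 reads and a log2 ratio of -0.15 (-0.41 to 0.11). Inside the gene, the region with the most reads of all 71 members, from 128996455 to 128998197, had 983 and 652 reads and a log2 ratio of -0.03 (-0.18 to 0.11). The region from 128980718 to 128981532 had 597 and 394 reads and a log2 ratio of -0.04 (-0.23 to 0.15). The 3 regions of CAPN3 with the most reads thus did not differ detectably between the breeds.

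The other end of CAPN3 differed. From 9.15 kb outside the lower coordinate to 7.76 kb inside it, each of 10 regions had a log2 ratio below 0, from -0.97 to -0.21, and together they held 2502 reads in Duroc and 1286 in Luchuan, a log2 ratio of -0.40. The remaining 12 regions held 4225 and 2700 reads, a log2 ratio of -0.08. This division too was made after the values had been seen. Of the first 10 regions, those from 128950813 to 128957232 lay outside CAPN3 in the neighbouring gene ZNF106, so the stretch is not that of CAPN3 alone. Without regions in another gene the log2 ratio of the CAPN3 sum was -0.18 (-0.24 to -0.12). The stretch near the lower coordinate also holds strong regions. Outside the gene, the region from 128957616 to 128958370 had 581 and 336 reads and a log2 ratio of -0.23 (-0.43 to -0.03). Inside it, the region from 128967421 to 128968341 had 595 and 317 reads and a log2 ratio of -0.34 (-0.55 to -0.15), at percentile 5.58 among regions of like depth. Just inside the gene, the region from 128960301 to 128960815 had 396 reads in Duroc and 177 in Luchuan, a log2 ratio of -0.60 (-0.86 to -0.34), with 769 Duroc reads per kb. It and the regions from 128961328 to 128961508 and from 128961556 to 128961738 were called as peaks in Duroc only. Even so they held 343 to 344 Luchuan reads per kb, above 83.5% of all regions in that breed. The largest ratio of CAPN3 in size, -0.97 (-1.67 to -0.38), belonged to the region from 128951581 to 128951730, with 86 and 29 reads, inside the neighbouring gene ZNF106. Next came -0.60, already given, and -0.50 (-0.97 to -0.07) from 128961556 to 128961738, with 133 reads in Duroc and 63 in Luchuan.

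A single region of CAPN3 was higher in Luchuan by more than counting error. It lay from 129007180 to 129007558, inside the gene 6.14 kb from the higher coordinate, with 207 reads in Duroc and 180 in Luchuan and a log2 ratio of 0.36 (0.06 to 0.65). It was called as a peak in Luchuan only, although its unscaled count was larger in Duroc. The 113 regions within 500 kb of CAPN3 had a median log2 ratio of -0.18. The median over the regions of CAPN3 itself was -0.23, and the log2 ratio of its sum, in which deep regions weigh more, was -0.19.

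CAPNS1, encoding the small subunit shared by both ubiquitous calpains, lies on chromosome 6 from 45511410 to 45518610. All 4 of its regions were called in both breeds. The region across the end with the lower coordinate, from 45510924 to 45511645, had 442 reads in Duroc and 322 in Luchuan, a log2 ratio of 0.11 (-0.11 to 0.31). The region inside the gene, from 45512140 to 45512713, had 365 and 209 reads, a log2 ratio of -0.24 (-0.50 to 0.01). Neither differed by more than counting error. The other regions lay in neighbouring genes, and CAPNS1 therefore shares its sum with them. The strongest, from 45519777 to 45521112 in COX7A1, which encodes a muscle subunit of cytochrome c oxidase, had 887 and 558 reads and a log2 ratio of -0.11 (-0.26 to 0.05). The weakest, from 45526776 to 45527352 in ZNF146, had 154 and 64 reads and a log2 ratio of -0.69 (-1.15 to -0.28). Without these regions the log2 ratio of the CAPNS1 sum was -0.04 (-0.20 to 0.12).

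CAST, encoding calpastatin, lies on chromosome 2 from 103255738 to 103378623, far from CAPN1 on the same chromosome. At the end with the lower coordinate, the region from 103255604 to 103256965 had 525 reads in Duroc and 441 in Luchuan, a log2 ratio of 0.31 (0.12 to 0.50). Inside the gene, the region from 103310705 to 103311221 had 255 and 235 reads and a log2 ratio of 0.44 (0.18 to 0.70). The region from 103312277 to 103312847 had 394 and 332 reads and a log2 ratio of 0.31 (0.10 to 0.53). These 3 common regions, with 490 to 966 reads summed over both breeds, were higher in Luchuan by more than counting error and stood at percentiles 94.4 to 95.5 among regions of like depth. The region from 103323209 to 103323558, also common, had 68 and 81 reads and a log2 ratio of 0.81 (0.33 to 1.30). Its percentile of 96.5 was the highest of all 71 members.

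CAST also held regions of lower Luchuan signal among those of higher Luchuan signal. The common region from 103318764 to 103319256 had 245 reads in Duroc and 102 in Luchuan, a log2 ratio of -0.69 (-1.05 to -0.36). Next to it, the region from 103319621 to 103319772, called in Luchuan only, had 20 and 31 reads and a log2 ratio of 1.17 (0.34 to 2.08). The strongest region of the gene, from 103299954 to 103300959, had 874 and 593 reads and a log2 ratio of 0.00 (-0.15 to 0.15). Beside it, the region from 103299342 to 103299596, called in Duroc only, had 146 and 61 reads and a log2 ratio of -0.68 (-1.15 to -0.26). The intervals of these neighbouring regions do not overlap within either pair, so their ratios differed by more than counting error in these pooled libraries. The pairs were chosen after the values had been seen, and each includes a region called in a single breed. Among regions of like depth the first pair stood at percentiles 12.2 and 94.8, and the second at 45.4 and 14.5. Whether the ratio varied along the gene by more than regions of like depth vary was not tested.

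The first 8 regions of CAST, up to 67.6 kb from the lower coordinate, held 81.7% of its reads, and the intervals of 7 of them left out 0. The other 16 regions had 34 to 126 reads each, and the intervals of all 16 included 0. Among them the highest ratio was 0.95 (-0.06 to 2.05), with 15 and 20 reads, from 103339696 to 103339845. The region beyond the higher coordinate, from 103379350 to 103379669 in ERAP1, had 68 and 53 reads and a log2 ratio of 0.21 (-0.34 to 0.74). The 98 regions within 500 kb of CAST had a median log2 ratio of -0.13, below that of the gene. Their middle 50% ran from -0.52 to 0.27 and so held the 0.11 of the CAST sum. With a margin of 50 kb the log2 ratio of the CAST sum was 0.04 (-0.02 to 0.11), and the interval then included 0.

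Over all 71 regions, 45 had a log2 ratio below 0 and 26 above 0. The share below 0 was 63.4%, against 50.8% of all regions, or 52.2% with these weighted to the depths of the members. The median was -0.15, against -0.01 over all 140081 regions. The interval left out 0 on the Duroc side in 21 regions, or 29.6%, against 15.7% of all regions. On the Luchuan side it did so in 9 regions, or 12.7%, against 13.4%. Deeper regions have narrower intervals, and the members held a median of 147 reads against 99. With all regions weighted to the depths of the members, the shares of all regions were 17.0% and 13.0%. Differences were mostly small. A region was called different at 2-fold or more with an interval that left out 0. By this rule 1 member was higher in Duroc, or 1.41%, against 4.99% of all regions, and 3 members were higher in Luchuan, or 4.23%, against 6.38%. Weighted to the depths of the members, the shares of all regions were 4.69% and 4.49%, so the Luchuan share of the members was close to that of all regions. With a separate scaling factor for each of 10 classes of reads, the counts were 5 higher in Duroc and 0 higher in Luchuan, so their balance rests on the scaling. The shares of all regions were not computed under that scaling, so these counts have no background beside them. At 1.5-fold there were 13 members higher in Duroc, or 18.3% against 10.6% of all regions. There were 5 higher in Luchuan, or 7.04% against 9.44%. At the depths of the members, the 1.5-fold shares of all regions were 10.44% and 7.505%, the latter close to the Luchuan share of the members.

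**Figure D3:**
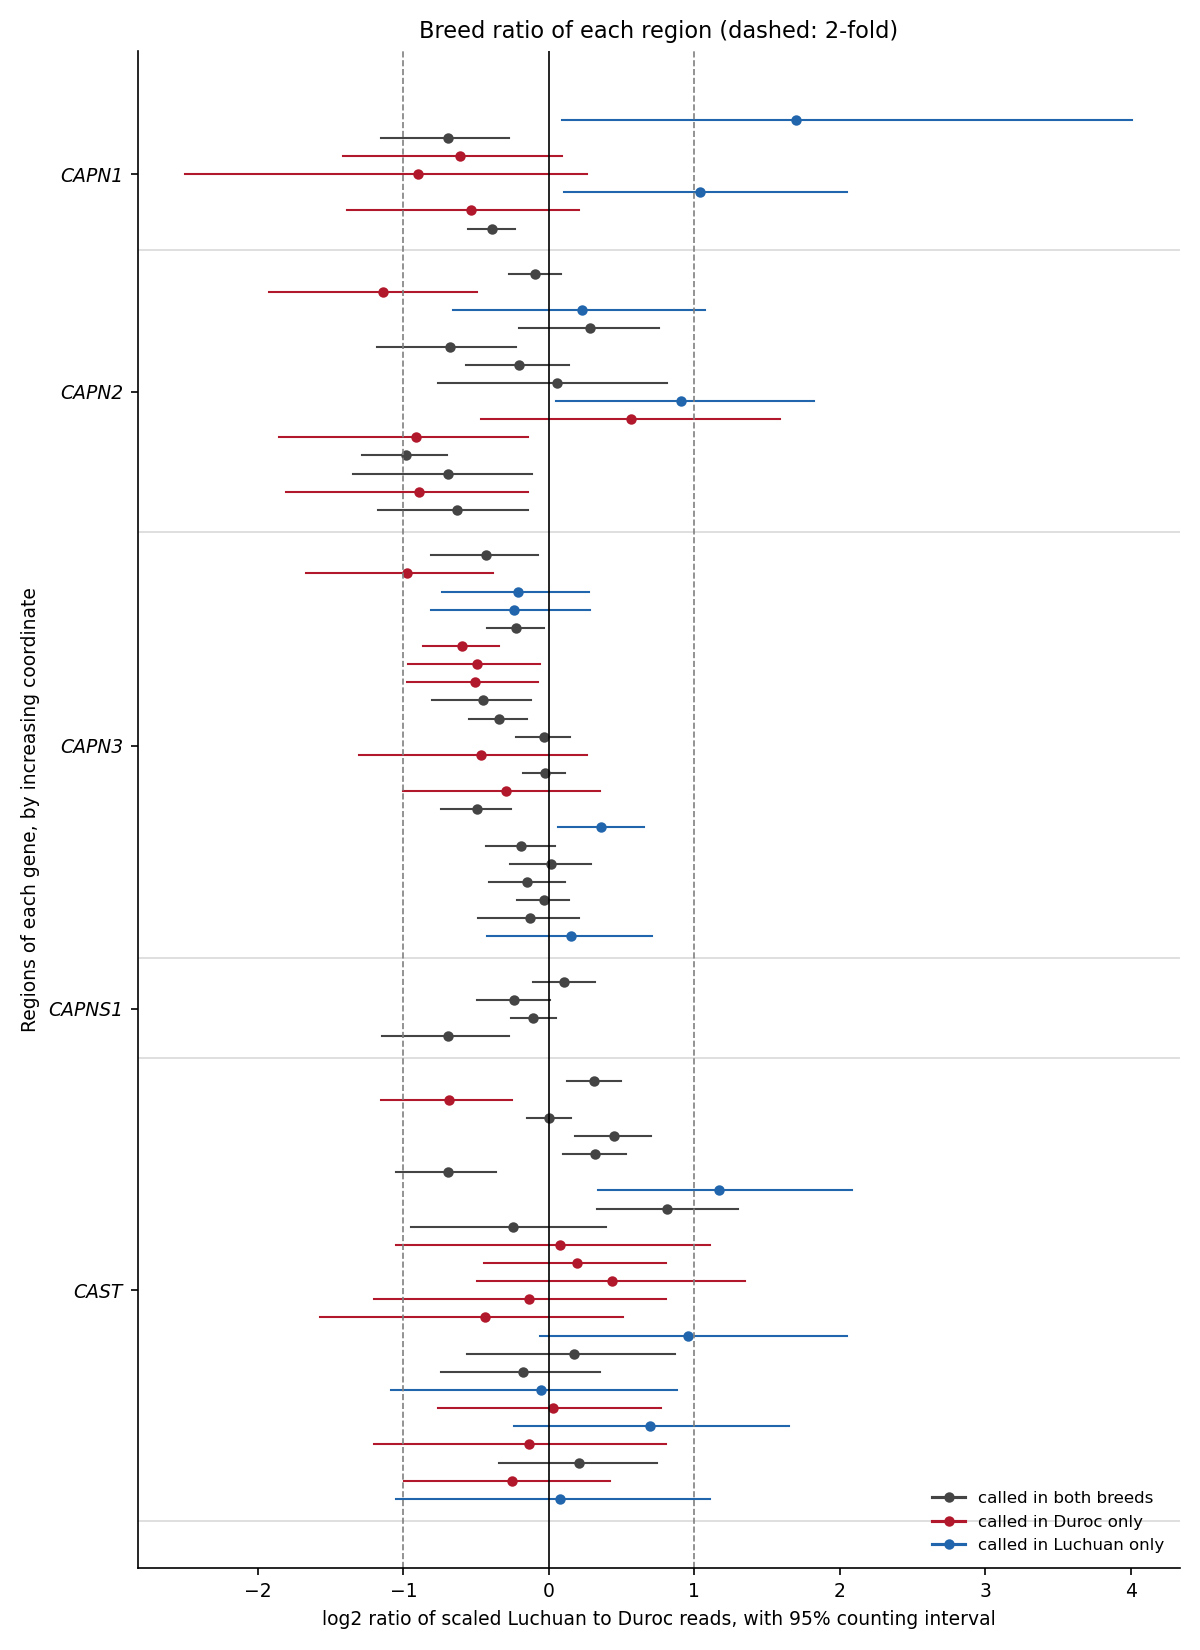
Log2 ratio of scaled Luchuan to Duroc reads of each of the 71 regions (x axis), grouped by gene and ordered by coordinate within it (y axis). Points are ratios, lines are 95% counting intervals, dashed lines mark 2-fold, and colours give the breed in which the peak was called. The last 5 regions of CAPN2 and the first 10 of CAPN3 lie below 0, and the regions of CAST lie on both sides.

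The breed in which a peak was called and its ratio are not independent, since both come from the same reads. Of the 71 regions, 36 were called in both breeds, 22 in Duroc only and 13 in Luchuan only. Their shares of 50.7%, 31.0% and 18.3% were close to the 49.1%, 31.8% and 19.1% of all regions. All 4 members called different at 2-fold had been called as peaks in 1 breed only and held at most 100 reads. The regions called in both breeds give the comparison with least influence of peak calling. Among them the ratio was below 0 for 2 of 2 in CAPN1, 6 of 8 in CAPN2, 11 of 12 in CAPN3 and 3 of 4 in CAPNS1, and above 0 for 7 of 10 in CAST. The log2 ratios of their sums were -0.43 for CAPN1, -0.35 for CAPN2, -0.17 for CAPN3, -0.12 for CAPNS1 and 0.14 for CAST.

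Read depth set how far single regions could be told apart. All regions were ranked by reads into 10 classes. In the lowest class, up to 29 reads, the central 95% of log2 ratios ran from -1.44 to 2.33. In the highest class, from 688 reads, they ran from -0.49 to 0.38, and the median counting interval there was 0.18 to either side. Even deep regions thus varied between these pooled libraries by more than counting error. Of the 71 members, 0 lay outside the central 95% of their class, and 48 lay under its median.

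**Figure D4:**
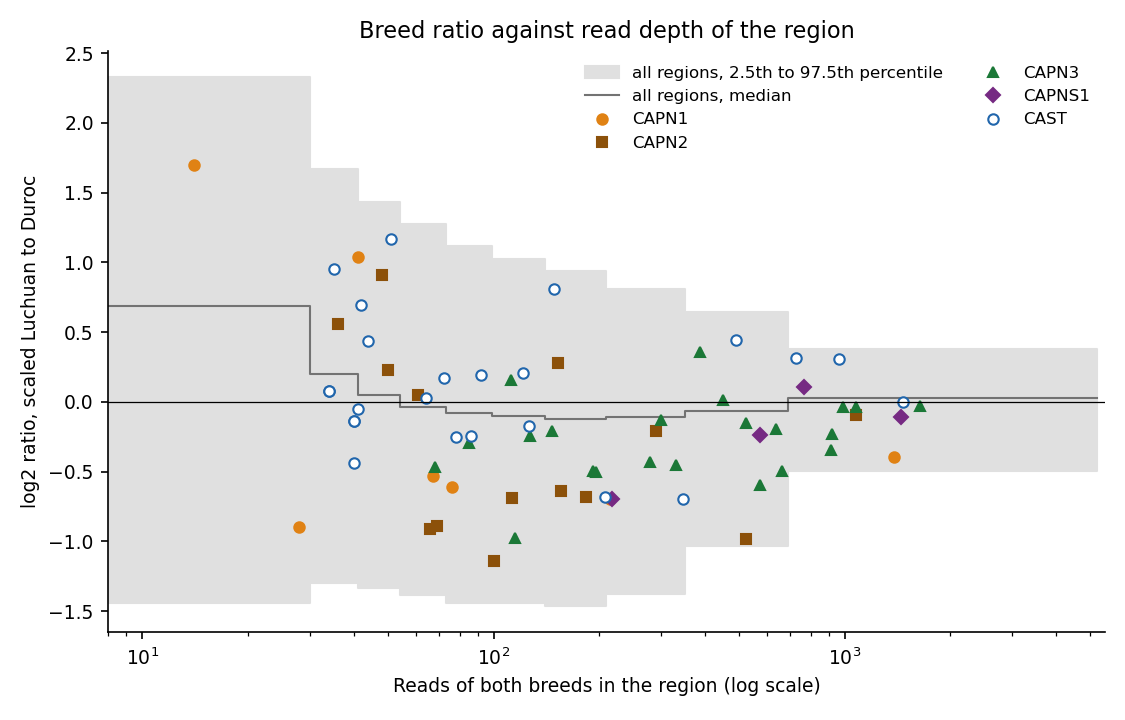
Log2 ratio of each member region (y axis) against its reads summed over both breeds (x axis, log scale). The grey steps hold the central 95% of all regions in each of 10 classes of reads and the grey line is their median. Every member lies within the steps, which narrow from -1.44 to 2.33 at the left to -0.49 to 0.38 at the right.

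Other genes of the calpain family were examined from a list of 13 symbols, of which 12 matched the annotation and 11 had a region. Their median log2 ratio was 0.12, against -0.01 over all genes. The interval lay on the Duroc side for 4 and on the Luchuan side for 3 of them, against 25.5% and 22.5% of all genes. CAPN8, a calpain known from the stomach, had 840 reads in Duroc and 409 in Luchuan and a log2 ratio of -0.48 (-0.65 to -0.30). It is the neighbour of CAPN2, 26.7 kb away, and shared no region with it. CAPN9, a calpain of the digestive tract, had 339 and 292 reads and a log2 ratio of 0.35 (0.12 to 0.58), and CAPN12 had 721 and 619 reads and 0.34 (0.18 to 0.50).

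The other proteases of muscle and their inhibitors were covered by 8 genes for cathepsins, caspases and cystatins. All 8 had regions, with a median log2 ratio of -0.08. The interval lay on the Duroc side for 3 and on the Luchuan side for 0 of them, against the 25.5% and 22.5% of all genes. CSTB, encoding the cysteine protease inhibitor cystatin B, had 1028 reads in Duroc and 477 in Luchuan and a log2 ratio of -0.54 (-0.71 to -0.39). CTSL, encoding the lysosomal protease cathepsin L, had 1325 and 686 reads and -0.39 (-0.52 to -0.25). CTSD, encoding the lysosomal aspartic protease cathepsin D, had 1246 and 697 reads and -0.28 (-0.41 to -0.14).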

How the data were processed

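ATAC-seq of 3 Duroc and 3 Luchuan boars was analysed, and the RNA-seq libraries were not analysed here. Before deposit, adapters and poor bases were removed by the authors (Trimmomatic, v0.36), and Bowtie2 and MACS2 served for alignment to Sscrofa11.1 and peak calling. The deposited values are raw counts of reads in each peak interval, in 1 column per breed without replicate number, which was read as pooled over boars. How reads were counted, duplicates treated and replicates pooled is not given in the sources used here. Another 3 deposited columns hold the authors' comparison (rescaled fold change, signal, p-value) and were not used.

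Starts were counted from 0 in the table, since the shortest interval is then 150 bases, and are given here from 1. Gene positions came from RefSeq for Sscrofa11.1, an assembly of a Duroc pig, in which all 5 symbols matched. Sums over a gene used the merged regions. With 1 pooled count per breed no test was made and no p-value is given. The difference between 2 genes has a Wald interval from the 4 sums. The scripts were tested on simulated data.

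The members and lists were chosen with earlier results of these data known. Regions printed are those at gene ends, the 3 with most reads and the 3 with the largest ratio of each gene, and those past 2-fold. Others, and the stretches within genes, were chosen after values had been seen. Of each further list the 3 genes with the largest ratio and at least 100 reads are named. A gene of the list of other proteases is not reported here. With 1 ratio per region, no gene of like pattern could be sought. Alternatives covered scaling, margins, neighbouring genes, merging, a minimum of 20 reads and the fold. Intervals came from SciPy 1.17.1 and figures from Matplotlib 3.10.9, with pandas 2.3.3 and NumPy 2.4.6 under Python 3.11.15.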

Additional observations from a re-analysis of the deposited data

How the results depend on the processing

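No paired analysis was possible because the table holds 1 count per breed and none per replicate, and no replicate could be left out. The log2 ratio of the summed reads stayed below 0 under all 13 alternatives for CAPN1, CAPN2, CAPN3 and CAPNS1, and above 0 under 12 of 13 for CAST. Without scaling, by construction, all values moved down, to -0.96 for CAPN1, -0.92 for CAPN2, -0.75 for CAPN3, -0.68 for CAPNS1 and -0.45 for CAST, and to -0.71 for the median region. CAPN1 also moved to -0.26 with a margin of 50 kb. CAPN2 moved to -0.49 in the gene body alone and to -0.52 without its strongest region, and CAPNS1 to -0.24 in the gene body alone. The CAPNS1 interval left out 0 under 7 of 13 alternatives and that of CAST under 12. These tallies include settings that could not weaken a result. No scaling could only move a ratio below 0 further from 0. For CAPNS1, the interval with the most reads, the minimum of 20 reads and common regions alone all kept the sums of 1848 and 1153 reads. Taking the interval with the most reads also left the sums of the other genes unchanged. The centre of the ratios moved by -0.03 with total reads as the scale and by -0.01 with the median of all regions. Of the differences between genes, a margin of 50 kb moved CAPN2 minus CAPN1 to -0.14 (-0.25 to -0.03), CAPN3 minus CAPN1 to 0.028 (-0.06 to 0.12), CAST minus CAPN1 to 0.31 and CAST minus CAPNS1 to 0.10, and brought CAPNS1 minus CAPN3 to 0.18 (0.09 to 0.27). Leaving out the strongest regions moved CAPN3 minus CAPN2 to 0.29 and CAST minus CAPN2 to 0.67, and the intervals of CAPN3 and CAPNS1 minus CAPN1 then included 0, at 0.20 and 0.29. In the gene body alone CAPNS1 minus CAPN1, at 0.18, and CAPNS1 minus CAPN2, at 0.25, had intervals that included 0. CAST minus CAPN1, CAPN2 and CAPN3 left out 0 under all 13. Total reads, the median of all regions and no scaling each apply a single factor. It cancels in a difference between genes, so these alternatives could not change any of them. Representing each region by its interval with the most reads also left the differences unchanged. Leaving out the strongest region, keeping only common regions, and all alternatives for differences between genes, were added after seeing the data.

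Counts of regions past 2-fold were 1 higher in Duroc and 3 higher in Luchuan. Scaling within 10 classes of reads gave 5 and 0, no scaling gave 22 and 0, and a margin of 50 kb gave 6 and 4. For these scalings the shares of all regions were not computed, and for the wider margin the number of regions is not given. Such counts therefore have no background beside them. Common regions alone gave 0 and 0. A limit of 1.5-fold gave 13 and 5, and the interval alone, with no limit on the fold, gave 21 and 9. Depth limits single regions: with at most 29 reads the median interval reached 1.35 to either side on the log2 scale.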
